A study of Drosophila melanogaster with 12 samples.

Results

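The 3R peaks are all regions on the right arm of the third chromosome at which an antibody against a linker histone gave a called peak in Drosophila melanogaster S2 cells. They were taken from 8 peak lists by chromosome name and placed by their midpoint, on build dm3 (Release 5). They number 6420 of the 19365 peaks in the lists, with 39 to 153 in each dBigH1 list and 1165 to 1837 in each H1 list. S2 is an established cell line derived from late embryos.

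Induced cells carry the genotype label wt BigH1 1mM induced, and control cells the label wt. In each condition chromatin was immunoprecipitated with polyclonal αdBigH1 or polyclonal αH1 and sequenced, in 2 replicates per antibody, beside input libraries. Treatment with 1 mM copper sulphate for 24 h is given in the same words for every sample, so whether control cells received copper is not stated. The growth protocol names FLAG-tagged dBigH1 lines maintained in Hygromycin B, which the genotype labels do not mention. Neither the promoter that drives the transgene nor whether the line is 1 clone is stated in the labels. Nothing in the labels says that the replicates were separate cultures, so p-values measure only the spread between these libraries, which may be technical.

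Linker histones bind the nucleosome where DNA enters and leaves it, and they help chromatin fold. In flies H1 is the somatic linker histone, and dBigH1 takes its place in the early embryo before the zygotic genome is active, and in the germline. Positions on 3R run outward from the centromere. The arm is known for carrying the Antennapedia and bithorax complexes, the Hox genes that set body segment identity. Gene positions and genome sequence of the Release 5 build were not used here, so peaks are given by position and not by gene. A peak caller scores enrichment over the local background, so a protein spread evenly along chromatin gives few peaks. The lists hold no read counts, so depth is unknown, and a stretch without peaks may still carry the protein.

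The whole lists held 196 and 238 dBigH1 peaks in induced cells against 599 and 719 in control cells. For H1 they held 3545 and 5182 in induced cells against 3814 and 5072 in control cells. Replicate 2 gave the longer list of every pair. Scores are the authors' values. No list held a score below 50. Scores rank or filter peaks within a list, and since depth is unknown, scores of different lists are given side by side without reading a level from them. The same holds for a filter at a score of 100, which keeps different shares of different lists.

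H1 was called more densely on 3R than on any other large arm. Peaks per Mb on 3R were 41.8 and 65.2 in the induced H1 lists, against 45.0 and 65.9 in the control H1 lists. The arms 2L, 2R and 3L together carried 29.1 and 40.1 peaks per Mb in induced cells, against 32.0 and 40.4 in control cells. All 4 H1 lists thus ranked 3R first of 5 arms, and 32.9% to 36.2% of each list lay on it. Over the 4 libraries the density on 3R was 1.52 times that of 2L, 2R and 3L (mean log2 ratio 0.61, above 0 in 4 of 4 libraries, exact two-sided sign-flip p = 0.125, the smallest that 4 libraries allow). Counted as covered bp instead of peaks, the log2 ratio was 0.40.

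dBigH1 did not share this excess. Its 3R density was 1.4 and 1.54 peaks per Mb in induced cells, against 4.05 and 5.49 in control cells. As a ratio to the density of 2L, 2R and 3L together, that was 0.632 and 0.557 in induced cells, against 0.854 and 0.940 in control cells. All 4 ratios were below 1, and every induced library lay below every control library (log2 difference -0.59, exact two-sided permutation p = 0.333, the smallest that 2 against 2 libraries allow). In induced cells the arms 2L (2.87 and 3.96) and 3L (3.18 and 3.51) carried more dBigH1 peaks per Mb than 3R in both libraries. The arm 2R carried fewer, at 0.378 and 0.615. In control cells only 2L of the pooled arms carried more than 3R, at 6.48 and 8.57. Control 3R density lay above that of 2R (3.74 and 3.64) and, by less, that of 3L in both libraries. The control ratios below 1 thus rest on 2L. The log2 difference between induced and control ratios was -1.0 in covered bp. It was -1.86 among peaks with a score of 100 or more, a set that held only 1 and 7 induced 3R peaks.

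**Figure D1:**
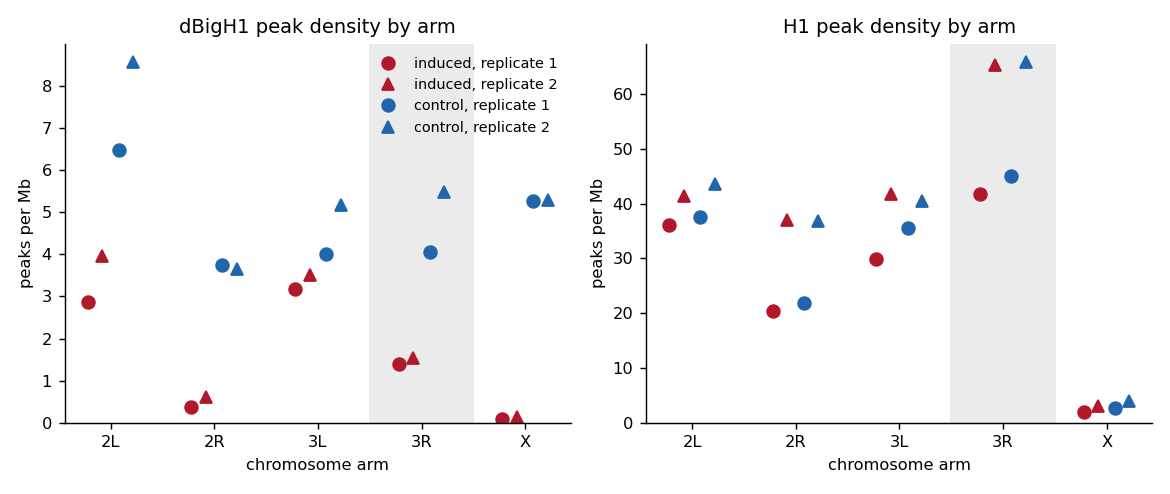
Peaks per Mb (vertical axis) on each large chromosome arm (horizontal axis), for dBigH1 (left) and H1 (right). Each point is 1 library, circles for replicate 1 and triangles for replicate 2, red for induced and blue for control cells, and 3R is shaded. H1 points on 3R lie above those of the same library on every other arm, while induced dBigH1 points on 3R lie below those on 2L and 3L.

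H1 peaks were spread unevenly along 3R, and the order of full and sparse windows was similar in all 4 lists. Counted in 56 windows of 500 kb, the induced H1 lists had a median of 17 and 29 peaks per window, with a range of 0 to 58 and 0 to 81. The control H1 lists had a median of 18 and 29, with a range of 0 to 62 and 0 to 82. The last window is cut short, as the highest peak end was at 27.9 Mb. Of the 14 fullest windows of each list, 11 were common to all 4 lists, and 17 were among the fullest in at least 1. Of the 14 emptiest windows of each list, 8 were common to all 4.

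Window counts of H1 lists ran closely together, whichever lists were set side by side. Pearson's r over the 56 windows was 0.95 between the induced replicates and 0.89 between the control replicates. It was 0.87 to 0.96 between induced and control lists. These correlations are descriptions, since the windows of a list share its library and depth.

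Windows at or above the list's own mean in all 4 H1 lists numbered 18 and formed 6 runs. The longest ran from 1.5 to 4 Mb and held 215 and 288 H1 peaks in induced cells, against 259 and 304 in control cells. The other 5 lay at 6 to 7, 7.5 to 9, 12.5 to 14, 15 to 16.5 and 21.5 to 22.5 Mb. The runs at 15 to 16.5 and 21.5 to 22.5 Mb began beyond 13.9 Mb, the midpoint of the arm. The others began on the side of the centromere.

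A stricter rule, at least 2 times the list's own mean in all 4 lists, was met by 4 windows. The window from 13 to 13.5 Mb had the highest mean, with 58 and 71 H1 peaks in induced cells and 59 and 82 in control cells. The others began at 6.5 Mb (53 and 81 in induced cells, 56 and 70 in control cells), at 2 Mb (55 and 65, against 62 and 74) and at 15 Mb (42 and 76, against 50 and 67). The windows from 3 to 3.5 Mb and from 8.5 to 9 Mb, with means of 58.8 and 56.5 peaks over the 4 lists, completed the 6 fullest. No window met the rule once peaks closer than 1000 bp were joined.

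H1 peaks on 3R were closely spaced. The median distance to the next peak was 4.32 and 1.85 kb in induced cells, against 4.01 and 2.03 kb in control cells. Peaks less than 5 kb from the next made up 54.4% and 69.5% in induced cells, against 55.5% and 69.4% in control cells. The replicate 2 lists had the shorter spacing in both conditions. The 14 windows richest in H1 peaks also held a larger share of high scores than the 14 poorest in all 4 lists. In the 14 richest windows, 47.3% and 61.2% of peaks scored 100 or more in induced cells, against 41.9% and 55.9% in control cells. In the 14 poorest windows the shares were 37.7% and 30.8% in induced cells, against 37.7% and 37.5% in control cells. These rested on 61 and 107 induced and 77 and 112 control peaks. From the richest to the poorest group of 14 windows, the share fell at every step only in the replicate 2 lists.

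Another 5 runs of windows fell short of 0.5 times the list's own mean in all 4 H1 lists. They covered 10 windows, at 9 to 10.5, 11 to 11.5, 18 to 18.5, 19 to 20 and 25 to 26.5 Mb. Only the window from 10 to 10.5 Mb had at most 2 peaks in every H1 list, and it had 0 in each of the 4. From 19 to 20 Mb the induced H1 lists held 2 and 2 peaks, against 5 and 8 in the control H1 lists. Every control list exceeded every induced list there. By window this held in 5 of the 56 windows of 3R (8.93%), against 13% of the windows of all large arms. From 25 to 26.5 Mb the counts were 8 and 20 in induced cells, against 9 and 18 in control cells.

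**Figure D2:**
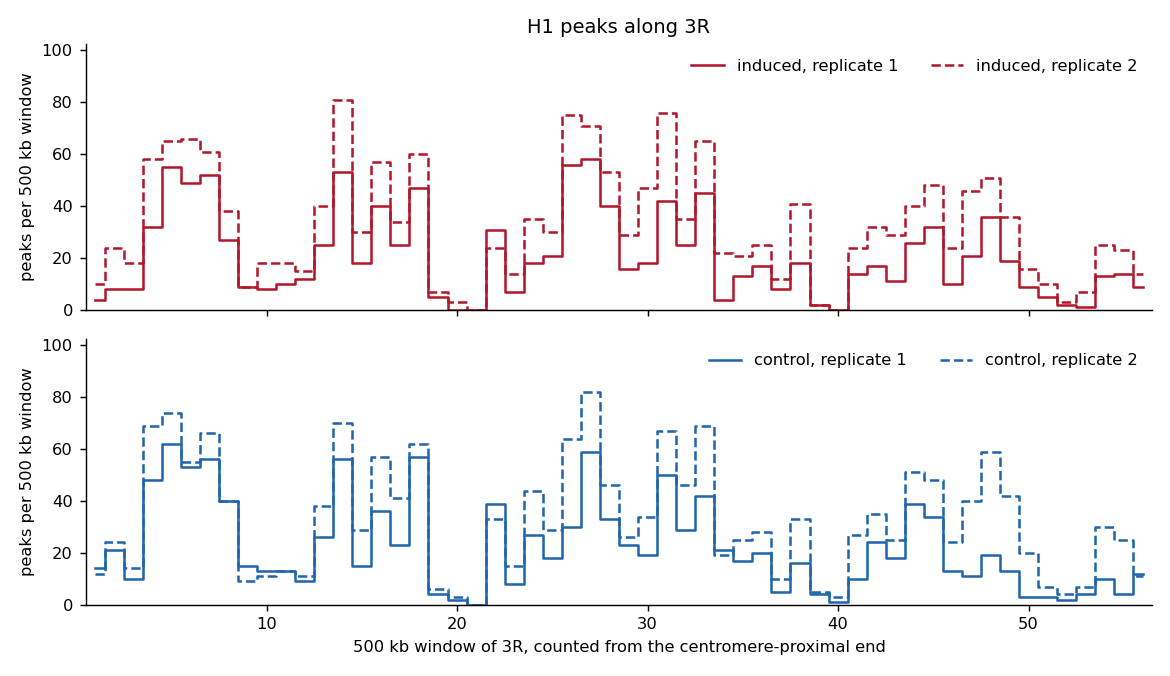
H1 peaks per 500 kb window (vertical axis) along the 56 windows of 3R (horizontal axis, counted from the centromere-proximal end), in induced cells (top) and control cells (bottom). Solid lines are replicate 1 and dashed lines replicate 2. The same hills and troughs appear in all 4 lists, with 0 peaks in all of them in the window from 10 to 10.5 Mb.

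The longest H1-free interval of the arm lay at 3R 9999914 to 10695142. It spanned 695 kb with no peak in any H1 list. It adjoined 2 others, at 9314750 to 9993197 (678 kb) and 9022127 to 9313433 (291 kb). Together they made up 1.67 Mb in which the induced H1 lists held 0 and 4 peaks, against 2 and 3 in the control H1 lists. Most of those peaks fell in 1 place, 9993198 to 9999913, which was called in 3 lists and not in the first induced list.

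This H1-poor block held control dBigH1 peaks and no induced ones. Induced dBigH1 lists had 0 and 0 peaks in the 1.67 Mb, against 7 and 8 in the control lists. Over the whole arm they held 1.4 and 1.54 induced peaks per Mb, against 4.05 and 5.49 control peaks. Control counts in the block were thus near the arm's average. Both induced lists were without a peak in 24 of the arm's 56 windows. The control peaks of the block recurred: 6 of the 7 in the first control list overlapped a peak of the second. Within the longest interval each control list had 6 peaks, and 5 of them recurred, including 10539400 to 10543607 with a score of 168 in the first control list. The highest score there, 584, belonged to a peak at 10488409 to 10492054 in the second control list that the first did not hold.

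The window from 10.5 to 11 Mb, which straddles the distal end of the block, had the highest mean number of dBigH1 peaks in both conditions. It held 4 and 6 dBigH1 peaks in induced cells, against 6 and 8 in control cells. The first control list was fuller elsewhere, with 7 peaks from 12.5 to 13 Mb and 7 from 19.5 to 20 Mb. Of the control peaks in the window from 10.5 to 11 Mb, 3 in each list lie inside the H1-free interval and are among those counted above. All induced peaks of the window lay beyond the interval, between 10795642 and 11000389. They shared 1 place between the induced lists, 10844540 to 10848771, with scores of 55.0 and 168 and no peak in a control list. In the second induced list a peak at 10848880 to 10855665 followed, which overlapped a peak of the second control list at 10848868 to 10851368. The leading control peak of the window, at 10912377 to 10916449, had scores of 1006 and 391 and no induced counterpart. The nearest induced dBigH1 peaks to it were 7.32 and 34.8 kb away. The same window also held the H1 region that ranked highest among those in all 4 lists, 10789751 to 10807992.

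**Figure D3:**
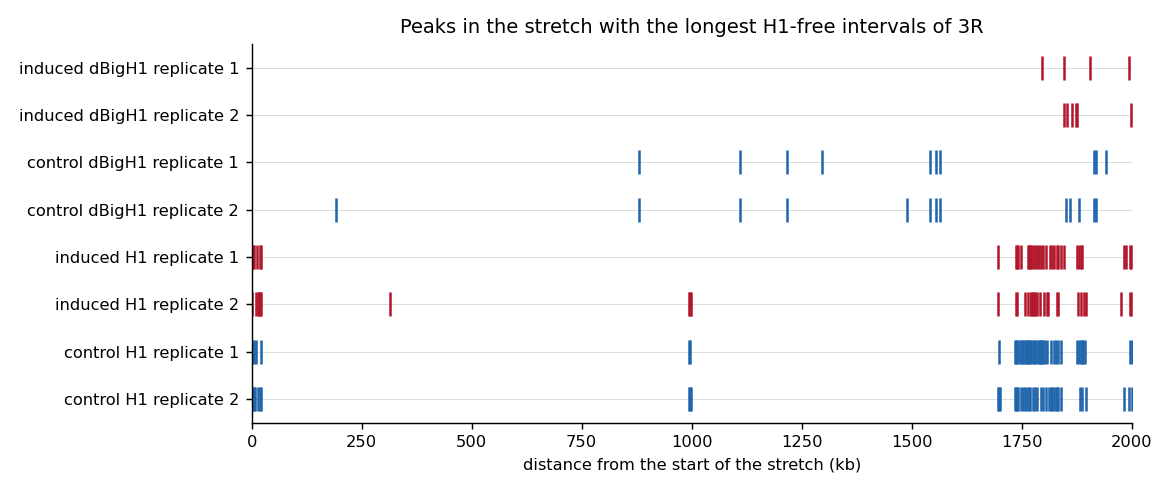
Peaks of the 8 lists in the 2000 kb from 9 to 11 Mb of 3R. The horizontal axis is the distance from the start of the stretch in kb, each tick is the midpoint of 1 peak, red for induced and blue for control cells. Control dBigH1 peaks lie both inside the H1-free intervals, where induced dBigH1 lists hold 0, and at the right. Induced dBigH1 peaks lie only at the right, near the dense H1 peaks.

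Fewer dBigH1 peaks were called on 3R in induced cells than in control cells. The lists held 39 and 43 peaks in induced cells, against 113 and 153 in control cells (41 ± 2.83 and 133 ± 28.3, mean ± SD, n = 2 each). The groups did not overlap, and the log2 ratio was -1.68 (exact two-sided permutation p = 0.333, the smallest possible). Covered length was 85.4 and 109 kb in induced cells, against 262 and 266 kb in control cells, with a log2 ratio of -1.45 and the same p. Among peaks with a score of 100 or more the log2 ratio was -3.56 for covered length and -4.30 for peak number, from 1 and 7 induced against 51 and 53 control peaks.

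The share of the list on 3R was 19.9% and 18.1% in induced cells, against 18.9% and 21.3% in control cells. These shares overlapped (difference of -1.09 percentage points, exact permutation p = 0.667). Without the second control library the difference was 0.118 points, with the sign turned. It was -7.91 points at a score of 100 or more, which kept only 1 and 7 induced 3R peaks.

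Mean peak widths on 3R did not separate the conditions as clearly. Mean width was 2191 and 2546 bp in induced cells, against 2316 and 1737 bp in control cells, and the groups overlapped (log2 ratio 0.24, exact permutation p = 0.667). The log2 ratio was 0.03 without the second control library, 0.44 without the first and 0.13 without the second induced library. Peaks with a score of 100 or more, only 1 and 7 in induced cells, gave 0.74. Median width was 1901 and 2188 bp in induced cells, against 1608 and 1424 bp in control cells. These medians did not overlap between the groups, and their difference was not tested. On 2L, 2R and 3L the medians were 3017 and 3352 bp in induced cells, against 1843 and 1773 bp in control cells. Set against those arms, the mean width on 3R was 0.654 and 0.691 times in induced cells, against 0.995 and 0.804 times in control cells. Induced dBigH1 peaks were therefore narrower on 3R relative to the other arms than control peaks were, without overlap of the groups (log2 difference -0.41, exact permutation p = 0.333, the smallest possible). That difference was -0.26 without the first control library.

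Scores of induced dBigH1 peaks on 3R lay close to the lower limit of the lists. Medians were 57.1 and 64.2 in induced cells, with highest scores of 143 and 168. In control cells the medians were 93.4 and 78.1 and the highest scores 3100 and 2445. Width and score were less closely related within the dBigH1 lists than within the H1 lists. For dBigH1, Spearman's rho across peaks, as a description, was 0.11 and 0.46 in induced cells and 0.13 and 0.17 in control cells. Within the H1 lists the same rho was 0.67 and 0.73 in induced cells and 0.72 and 0.74 in control cells.

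Along the arm, induced dBigH1 peaks were fewer toward the telomere. Beyond 13.9 Mb, the midpoint of the arm, lay 14 and 16 of the induced peaks (35.9% and 37.2%), against 51 and 66 of the control peaks (45.1% and 43.1%). The difference was -7.58 percentage points, with no overlap of the groups (exact permutation p = 0.333, the smallest possible). At a score of 100 or more it was -38.0 points, from only 1 and 7 induced peaks. For H1 the shares beyond the midpoint were 38.5% and 44.5% in induced cells, against 37.4% and 44.7% in control cells. The longest run of windows without an induced dBigH1 peak in either list was from 24 to 26.5 Mb. Control lists had 8 and 9 peaks in it.

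Windows without a dBigH1 peak numbered 30 and 34 of 56 in induced cells, against 10 and 5 in control cells. Both lists were without one in 24 windows in induced cells, against 4 in control cells. After the window from 10.5 to 11 Mb, the fullest for induced dBigH1 were at 8.5 to 9 Mb (2 and 4 peaks), 2 to 2.5 Mb (3 and 1), 6.5 to 7 Mb (1 and 3), 13 to 13.5 Mb (2 and 2) and 15 to 15.5 Mb (3 and 1). These 5 are among the 6 fullest for H1. In the control dBigH1 lists they held 1 and 3, 2 and 7, 1 and 2, 1 and 5, and 0 and 0 peaks.

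The fullest control windows after that at 10.5 Mb were mostly others. The window from 12.5 to 13 Mb held 7 and 6 control peaks, and that from 12 to 12.5 Mb held 5 and 7. The windows at 19.5 to 20 Mb (7 and 4) and 26 to 26.5 Mb (5 and 6) followed. Induced dBigH1 lists had 0 peaks in each of these 4 windows, as in 24 of all 56. The 4 were picked for their control counts. The last 2 lie in H1-poor blocks, and the first is rich in H1, with 56 and 75 H1 peaks in induced cells and 30 and 64 in control cells.

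**Figure D4:**
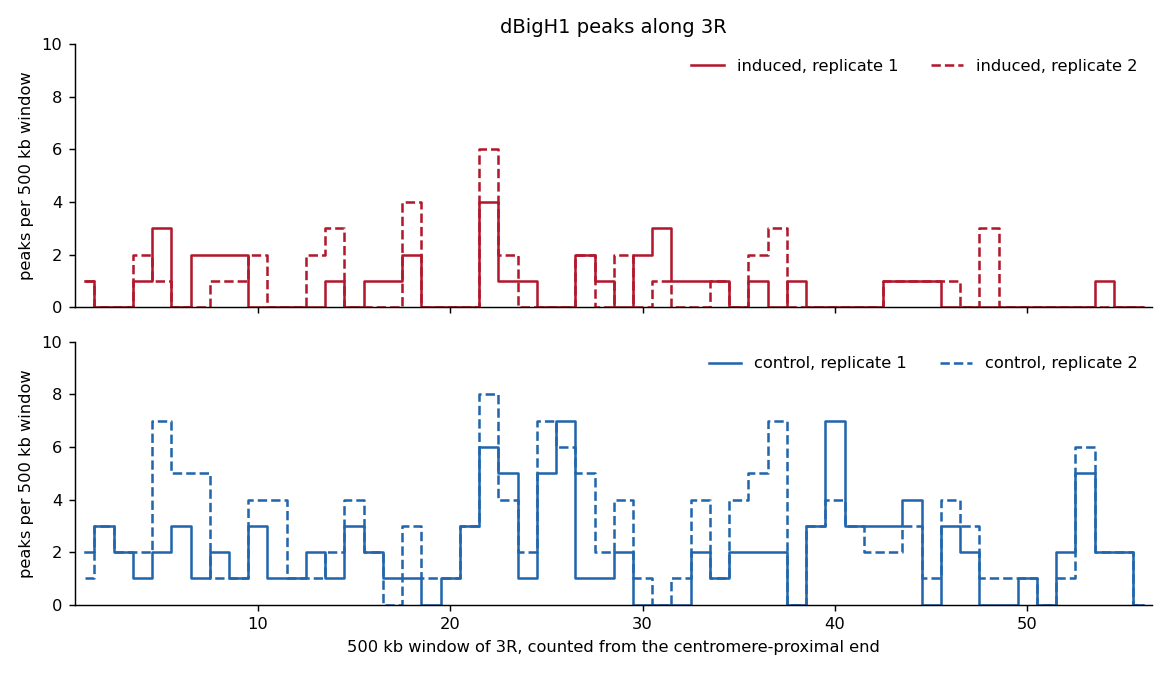
dBigH1 peaks per 500 kb window (vertical axis) along the 56 windows of 3R (horizontal axis, counted from the centromere-proximal end), in induced cells (top) and control cells (bottom). Solid lines are replicate 1 and dashed lines replicate 2. By the mean of the 2 lists, both conditions are highest in the window from 10.5 to 11 Mb. It holds 4 and 6 peaks in induced and 6 and 8 in control cells. The first control list alone is highest, at 7, in the windows from 12.5 to 13 and 19.5 to 20 Mb. Induced lists hold 0 peaks from 24 to 26.5 Mb.

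Counted window by window, every induced dBigH1 list was below every control list in 28 of 56 windows (50%), where the background over all large arms was 56.9%. Every induced list was above in 1 window, from 15 to 15.5 Mb (1.79%, background 2.93%). These shares are near the background. Once each count was taken as a share of the list's own 3R peaks, 11 windows had induced above (19.6%, background 12.1%) and 21 had induced below (37.5%, background 48.5%). Leaving a library out can only raise counts by number, since fewer lists must then lie apart. By number, the 1 window with dBigH1 above became 4 without the second control library, and 4 without either induced library. For H1 by number, induced lists were below in 5 windows (8.93%, background 13%) and above in 1 (1.79%, background 1.67%), also near the background. The 5 windows lay at 0 to 0.5, 3.5 to 4, 10.5 to 11, 19 to 19.5 and 19.5 to 20 Mb. With fewer lists needed, the 5 became 26 without the first control and 34 without the second induced library. The 1 became 19 without the second control and 22 without the first induced library. By share, H1 was above in 9 windows (16.1%, background 9.62%) and below in 10 (17.9%, background 13.8%).

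dBigH1 windows agreed less between lists than H1 windows did. Over the 56 windows Pearson's r was 0.47 between the induced replicates and 0.67 between the control replicates. Between conditions it was -0.10 to 0.32. Set against the H1 lists of the same condition, r was 0.20 to 0.51 for induced and -0.16 to 0.21 for control dBigH1 lists. Set against the H1 lists of the other condition, it was 0.24 to 0.66 for induced and -0.17 to 0.25 for control dBigH1 lists. Counts of 0 to 8 per window limit all of these.

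In single regions the control dBigH1 lists recurred and the induced lists hardly did. The 4 dBigH1 lists merged into 262 regions on 3R. Both induced lists and no control list held 5 of them (1.91%, background over the genome 2.45%). Both control lists and no induced list held 74 (28.2%, background 27.2%). With the 3R lists brought to equal length by score, 6 regions were induced-only and 24 control-only, and at a score of 100 or more 0 and 32. None of the 262 was held by all 4 lists, which allows a share of up to 1.15% by counting error (background 0.317%). The shares are near those of the whole genome. With 1 library left out a region needs fewer lists, so the 5 became 37 and 38 without the first and second induced library, and the 74 became 148 and 112 without the first and second control library. Without the second control library 1 region was held by the 3 remaining lists.

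Of the shorter list, 6 of 39 induced peaks recurred in the other induced replicate (15.4%, exact 95% binomial interval 5.86 to 30.5). In control cells 74 of 113 did (65.5%, 56.0 to 74.2). Intervals here and below cover counting error only. With a score of 100 or more the induced share was 0%, resting on 1 peak.

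The 6 control-only regions named here were chosen for their score rank. The first was 3R 21068868 to 21071196, with scores of 3100 and 2445, rank 1 in both control lists. Next came 24705376 to 24706839 (785 and 1071), 12046051 to 12048791 (632 and 735) and 10912377 to 10916449 (1006 and 391). The regions 19494113 to 19496292 (279 and 529) and 12744176 to 12745727 (598 and 293) completed the 6. They were 1.46 to 4.07 kb wide, none overlapped an H1 peak of any list, and the closest H1 peak lay 0.344 kb from the last of them. The 74 control-only regions lay on both sides of the arm's midpoint, 40 proximal and 34 distal.

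The 5 induced-only regions are given in full. They were 10844540 to 10848771 (scores 55.0 and 168), 6876971 to 6879775 (143 and 58.7), 22331440 to 22334518 (83.8 and 58.9), 13318420 to 13321314 (60.6 and 52.9) and 11355121 to 11357429 (51.8 and 58.6). Their median width was 2895 bp, against 1581 bp for the 74 control-only regions. Of the 5 regions, 4 lay proximal to the midpoint, as did 25 of 39 and 27 of 43 induced 3R peaks. The first had a control dBigH1 peak only 0.096 kb away in the second control list. The region at 22331440 lay 37.7 kb or more from the nearest H1 peak of any list, unlike the second, which overlapped a peak in all 4 H1 lists.

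Most induced dBigH1 peaks on 3R overlapped a peak of the matched H1 list (same condition, same replicate number), and few control peaks did. The shares were 22 of 39 (56.4%, exact 95% interval 39.6 to 72.2) and 31 of 43 (72.1%, 56.3 to 84.7) in induced cells. In control cells they were 6 of 113 (5.31%, 1.97 to 11.2) and 30 of 153 (19.6%, 13.6 to 26.8). The difference was 51.8 percentage points, with no overlap of the groups (exact permutation p = 0.333, the smallest possible). The matched H1 peaks covered 11.1% and 18.1% of the arm in induced cells, against 10.3% and 17.7% in control cells. Overlap needs only 1 bp, so peaks placed at random would overlap H1 more often than these covered shares. That random overlap was not calculated. Median peak width was larger in both induced lists, as given above, and its part in the difference was not tested.

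On 2L, 2R and 3L the same shares were 55.3% and 54.7% in induced cells, against 16.9% and 25.2% in control cells. The share on 3R minus that on the other arms differed between induced and control cells by 17.8 percentage points (exact permutation p = 0.333, the smallest possible). It was 9.72 points without the second induced library.

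High-scoring control dBigH1 peaks lay almost entirely outside H1 peaks. Of those with a score of 100 or more, 0 of 51 in the first control library (exact 95% interval 0 to 6.98%, and 3 counts of 51 would be 5.88%) and 1 of 53 in the second (1.89%, 0.0478 to 10.1) overlapped H1. Below 100 the shares were 6 of 62 (9.68%, 3.63 to 19.9) and 29 of 100 (29%, 20.4 to 38.9). Among control peaks found in both replicates, 1 of 74 and 2 of 74 overlapped H1, against 5 of 39 and 28 of 79 (12.8% and 35.4%) of those found in 1. Most control peaks that overlapped H1 thus had low scores and were held by 1 library. In induced cells 1 of 1 and 3 of 7 peaks scoring 100 or more overlapped H1. Of the 74 control-only regions, 2 overlapped any H1 list (2.70%, 0.329 to 9.42), and of the 5 induced-only regions 3 did.

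The median distance to the nearest matched H1 peak was 0 kb in both induced lists, against 27.0 and 15.6 kb in the control lists. More than 50 kb away lay 7.69% and 2.33% of induced peaks, against 33.6% and 22.2% of control peaks. Intervals of 100 kb or more without a peak in any H1 list numbered 41 and made up 25.9% of the arm. They held 5.13% and 6.98% of induced dBigH1 peaks (2 and 3 peaks), against 38.9% and 30.7% of control ones (44 and 47 peaks). The difference was -28.8 percentage points, with no overlap of the groups (exact permutation p = 0.333, the smallest possible). Both control shares lay above the 25.9% of the arm's length, and both induced shares lay below it. With a minimum of 50 kb, the intervals made up 41.7% of the arm and held 10.3% and 6.98% of induced peaks, against 61.9% and 50.3% of control peaks. The 6 intervals of 200 kb or more made up 8.69% of the arm. They held 0 and 0 induced peaks, against 13 and 11 control peaks (11.5% and 7.19%). At this minimum the second control share lay below the share of the arm's length. Only the first lay above it. Beside the 3 near 10 Mb, these 6 intervals lay at 19500097 to 19771950 (272 kb, with 5 and 3 control peaks), 25484986 to 25750718 (266 kb) and 16840051 to 17059292 (219 kb).

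**Figure D5:**
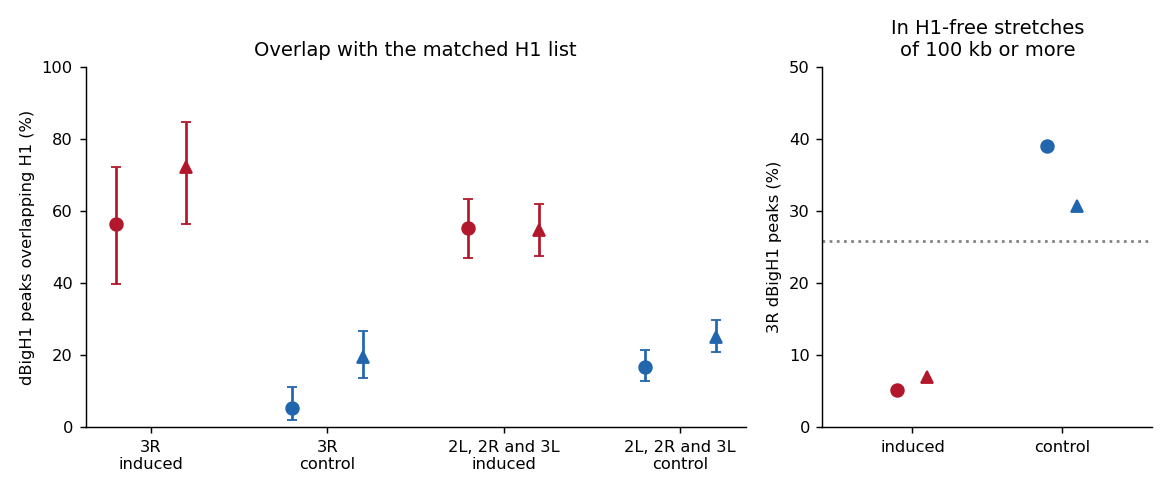
Left, share of dBigH1 peaks overlapping a peak of the matched H1 list (vertical axis, %), on 3R and on 2L, 2R and 3L, with exact 95% binomial intervals as bars. Right, share of 3R dBigH1 peaks in H1-free intervals of 100 kb or more, with the 25.9% of the arm that these make up as a dotted line. Circles are replicate 1 and triangles replicate 2, red for induced and blue for control cells. On 3R the induced libraries lie at 56.4% and 72.1% overlap against 5.31% and 19.6% in control cells, and in H1-free intervals at 5.13% and 6.98% against 38.9% and 30.7%.

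The number of H1 peaks on 3R did not differ detectably between conditions. Lists held 1165 and 1817 peaks in induced cells, against 1253 and 1837 in control cells (1491 ± 461 and 1545 ± 413, mean ± SD, n = 2 each). The log2 ratio was -0.06, far inside the spread between replicates (exact permutation p = 0.667). Covered length was 3.11 and 5.05 Mb in induced cells, against 2.88 and 4.93 Mb in control cells (log2 ratio 0.07, exact permutation p = 0.667). Both ratios changed sign when single libraries were left out, which leaves the longer second replicates unequally represented. Between same-numbered libraries, induced cells had fewer peaks and the larger covered length in both replicates. Number was 0.26 without the first induced and 0.22 without the second control library. Covered length was -0.28 without the second induced and -0.32 without the first control library.

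Mean H1 width on 3R was 2667 and 2778 bp in induced cells, against 2300 and 2684 bp in control cells (log2 ratio 0.13, exact permutation p = 0.667). The first control list stood apart with the narrowest peaks, and without it the log2 ratio was 0.02. On 3R H1 peaks were narrower than on 2L, 2R and 3L in all 4 lists, at 0.889 and 0.907 times in induced cells, against 0.774 and 0.917 times in control cells.

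The difference in log2 ratio of 3R peak number between the antibodies, dBigH1 minus H1, was -1.62. Permuting the condition labels within each antibody gave an exact p of 0.278 over 36 arrangements, of which the smallest possible is 0.0556. The difference was -4.29 at a score of 100 or more, with only 1 and 7 induced dBigH1 peaks. The corresponding difference in covered length was -1.52 (exact p = 0.111). Neither test could pass 0.05.

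The 4 H1 lists merged into 2237 regions on 3R, of which 455 (20.3%, background over the genome 21.7%) were held by all 4. These had a median width of 5134 bp and lay mostly on the proximal side, 300 against 155 beyond the midpoint. H1 peaks in general also lay more on that side, with 37.4% to 44.7% of each list's 3R peaks beyond the midpoint. The arm held 31.6% of the regions called in all 4 lists and 33.6% of all H1 regions. The share of an arm's regions called in all 4 lists was 20.3% on 3R, against 26.9% on 2L, 23.1% on 3L and 12.6% on 2R. Those ranking highest were 10789751 to 10807992, with scores of 496 and 604 in induced cells and 246 and 526 in control cells, and 3416767 to 3434790, with 291 and 632 in induced cells and 305 and 420 in control cells. They were 18.2 and 18.0 kb wide. The next 4 were 2833151 to 2842443, 6863319 to 6872715, 10782228 to 10787057 and 15255561 to 15263924. Of these 6 regions 1 overlapped a dBigH1 peak, the first, in the first induced list.

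Regions of 1 condition only were few for H1 and close in number. Both induced lists and no control list held 76 (3.40%, background 3.07%), and both control lists and no induced list held 85 (3.8%, background 3.44%). The number pairing the second replicates across conditions was larger, at 220. Each count moved by over 1.5 times with any library left out, since fewer lists are then needed. The 76 became 402 and 180 without the first and second induced library, and 280 and 126 without the second and first control library. The 85 became 139 and 294 without the first and second induced library, and 377 and 214 without the first and second control library.

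The leading induced-only H1 regions were 15377057 to 15380136 (scores 217 and 352), 23226360 to 23230405 (153 and 343) and 18725671 to 18730294 (204 and 264). The 3 after them were 18375694 to 18383964, 13149534 to 13153033 and 3666197 to 3669224. Control H1 peaks lay close by in most cases, 0.453 and 0.244 kb from the first and 7.65 and 0.066 kb from the second. The third was farther, at 19.9 and 7.14 kb. Control-only regions were led by 436503 to 439813 (scores 265 and 238), 6249046 to 6253127 (177 and 231) and 2021321 to 2023600 (145 and 233), followed by those at 3026517, 20200777 and 10752181. Induced H1 peaks were 17.1 and 10.8 kb from the first of these and 24.2 and 18.0 kb from the fourth. Mean ranks of 89.5 to 277 for the 6 induced-only and 133 to 401 for the 6 control-only regions place none of them at the top of the 3R lists.

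Single H1 peaks on 3R often recurred in the other replicate. In induced cells 919 of the 1165 peaks of the shorter list recurred in the other replicate (78.9%, 76.4 to 81.2), and in control cells 952 of 1253 did (76.0%, 73.5 to 78.3). Of the longer lists 903 of 1817 peaks recurred in induced cells (49.7%, 47.4 to 52.0), against 934 of 1837 in control cells (50.8%, 48.5 to 53.2). Recurrence was higher at higher scores. Of the highest-scoring peaks, 292 and 455 in induced cells and 314 and 460 in control cells, 89.0% and 74.7% recurred in induced cells, against 89.2% and 75.7% in control cells. Of as many lowest-scoring peaks, 71.2% and 29.0% recurred in induced cells, against 65.0% and 33.7% in control cells.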

How the data were processed

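Each of the 8 deposited lists holds the peaks of 1 immunoprecipitated library: peak coordinates, a MACS peak name and a score, which is the authors' value. Per the submitters' processing notes the tools were FastQC 011, Bowtie 0.12.5 and MACS 1.4.2 and the build was dm3. Their settings, and whether the inputs served as control, are not given in the sources used here. The 4 inputs were not analysed here. The members, rules and tests were chosen with earlier results of these data known.

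Peaks were counted in 500 kb windows by midpoint, and arms were taken to end at the highest peak end in any list. Peaks of an antibody's 4 lists were merged where they overlapped by 1 bp or more. Conditions were compared by exact two-sided permutation of log2 values or shares (6 arrangements, smallest p 0.333), and arms by exact sign flips. No test of this size can pass 0.05. Named regions were the 6 of each class with the lowest mean score rank among the 3R peaks of the lists that hold them, and named windows the 6 fullest. Starts are 1-based. Alternatives were a score of 100 or more, joining peaks closer than 1000 bp, 50% overlap, lists of equal length, other windows, a replicate block, and each library left out. The code was tested on simulated lists. Python 3.11.15, NumPy 2.4.6 and SciPy 1.17.1 were used. Depth is unknown.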

Additional observations from a re-analysis of the deposited data

How the results depend on the processing

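Of 246 alternative values, 179 kept their direction or size, 52 counts or shares moved and 15 comparisons changed sign. Of those 15, 14 concerned H1, whose totals hardly differed between conditions, and the cause was not tested. A score of 100 or more gave an H1 difference in the share of the list on 3R of 0.0807 points and of -0.105 points beyond the midpoint. Joining peaks gave an H1 log2 density difference of -0.030. Leaving out each library, H1 differences (log2) ranged from -0.38 to 0.26 for number, -0.32 to 0.46 for covered length, -0.094 to 0.12 for density and -0.030 to 0.22 for relative width. In percentage points they ranged from -2.26 to 1.11 for the share on 3R and -3.19 to 4.15 beyond the midpoint, and for dBigH1 the share on 3R from -2.30 to 0.118.

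A score of 100 or more left 0 induced-only and 32 control-only dBigH1 regions, 48, 35 and 146 H1 regions (induced-only, control-only, all 4), 6 nearly empty H1 windows, 0 windows with induced above for either antibody and 3 with H1 below. It gave replicate recurrence of 0% (induced dBigH1), 74.1% (induced H1) and 69.4% (control H1). Equal list length gave 24 control-only dBigH1 regions. Joined peaks gave 43 and 50 H1 regions (induced-only, control-only), 0 dense and 3 nearly empty windows. Covering 50% gave 234 H1 regions in all 4 lists and recurrence of 74.9% (induced H1) and 71.7% (control H1). Windows of 250 kb gave 10 dense and 8 nearly empty windows, 3 with dBigH1 above, 6 with H1 above and 12 with H1 below, while 1 Mb gave 0, 0 and 3. Shares in place of numbers gave 11, 9 and 10. With each library left out, dBigH1 regions ranged from 5 to 38 (induced-only), 74 to 148 (control-only) and 0 to 1 (all 4), and H1 regions from 126 to 402, 139 to 377 and 506 to 652. Windows ranged from 1 to 4 (dBigH1 above), 29 to 39 (dBigH1 below), 1 to 22 (H1 above), 5 to 34 (H1 below), 4 to 5 (dense) and 1 to 2 (nearly empty, 2 without the second control H1 library).

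The dBigH1 comparisons other than the share on 3R kept their sign in every alternative run, with log2 peak number between -4.30 and -1.46 and overlap with H1 between 44.0 and 70.5 points. A replicate block leaves the values as they are by construction: -1.68 (dBigH1) and -0.06 (H1) for log2 peak number and 51.8 points for overlap with H1, with exact sign-flip p of 0.5 at the least. The numbers did not clearly pair the libraries: deviations of same-numbered libraries correlated at 0.0022 for dBigH1 and 0.36 for H1 over windows. Results on relative width, the arm's midpoint, H1-free intervals and overlap relative to other arms, with their alternatives, were added after seeing the data, as were joined peaks and left-out libraries for density and left-out libraries for window calls.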
